A study of Mus musculus with 24 samples.

Results

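Cultures of mouse embryonic fibroblasts (MEFs) that carried the GR Zn/Zn genotype were compared with GR wt/wt cultures, both given only ethanol vehicle for 16 h. The comparison took 6 of the 24 RNA-seq libraries of the series, 3 of each genotype, chosen by genotype and treatment as labelled. All 6 were prepared from male C57BL/6 embryos at embryonic day 13.5, after the head and the internal organs, mainly heart and liver, had been taken out. The rest of each embryo was minced, digested with trypsin and grown for 7 days in high-glucose DMEM with 10% serum, so each culture was an unsorted mixture of whatever trunk and limb cells attached and divided. The mutant is also called C437G in the labels. The other 18 libraries were from the same genotypes with 1 uM dexamethasone (Dex) for 16 h, 100 ng/ul lipopolysaccharide (LPS) for 6 h, or both, and also entered the fit, where all libraries share the estimate of the spread. The labels do not say whether libraries of a group came from separate embryos or separate cultures. Every p-value below therefore measures only the spread among these libraries, and the genotype cannot be told apart from other differences between the embryos or cultures.

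The glucocorticoid receptor (GR, gene Nr3c1) is a nuclear receptor that waits in the cytoplasm bound to heat-shock protein chaperones, enters the nucleus when it binds a glucocorticoid, and there regulates transcription. Zinc fingers in its DNA-binding domain recognise glucocorticoid response elements, paired copies of a short sequence, while other GR actions run through contacts with other transcription factors such as NF-kB and AP-1. Fibroblasts respond to glucocorticoids with changes in matrix, contractile and inflammatory genes. According to the series title, the study asked which GR functions need direct binding to DNA. The comparison of vehicle-treated cultures shows how the genotypes differed before any synthetic ligand was added.

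Between 20148650 and 23541762 reads were counted in 5 of the 6 libraries, and 53108986 in replicate 1 of the mutant. Between 19525 and 21319 genes had at least 1 read per library. Levels below are in CPM, a gene's reads per 1000000 reads of its library after the total was adjusted by edgeR's TMM factor. A floor of 3 reads corresponded to 0.0565 to 0.149 CPM. Principal component 1 of the 6 libraries held 49.7% of the variance and separated the genotypes. Component 2 held 25.2% and separated mutant replicate 1, at -36.9, from mutant replicates 2 and 3, at 21.3 and 15.9. Replicate 1 also carried a higher library number than the rest. The deviation of its levels from its group's mean had the strongest correlation with GC content of the 6 libraries. Spearman rho across genes was -0.52, against 0.43 and 0.27 in mutant replicates 2 and 3. In wild-type replicates 1, 2 and 3 it was -0.26, 0.15 and 0.16. Deviations within a group balance out, so the values of its libraries are not independent. Counts tied to liver RNA varied among libraries and did not follow the genotype: the summed level of 20 liver markers was 95.8, 97.0 and 206 CPM in the wild type and 232, 35.7 and 40.03 CPM in the mutant, and 0 of the 18 tested ones passed the test. Xist had 0 reads in 5 libraries and 0.476 CPM in mutant replicate 1. Genes that define fibroblasts were high in both genotypes, with Col1a1 and Col1a2, the collagen I chains, averaging 7608 ± 475 and 5917 ± 181 CPM in the wild type and 8346 ± 1927 and 6558 ± 702 CPM in the mutant.

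Nr3c1 itself, on chromosome 18 of GRCm38 (ENSMUSG00000024431, chr18:39410545-39519421), was read at 92.6, 89.8 and 86.7 CPM in wild-type replicates 1, 2 and 3 and at 86.5, 85.3 and 87.5 CPM in the mutant replicates. The groups overlapped, and the test gave a log2 difference of -0.05 ± 0.12 (mutant minus wild type, standard error; adjusted p = 0.847). With dexamethasone the mean was 58.5 CPM in the wild type and 79.5 CPM in the mutant (log2 difference 0.44, adjusted p = 0.0114), and with dexamethasone and LPS 63.3 and 93.5 CPM (log2 difference 0.56, adjusted p = 0.00134). The gene count does not show the altered base, so it does not check the labels. Of 25 tested genes for GR, its chaperones and cofactors, 0 were higher and 1 was lower in the mutant, Hsd11b2, which inactivates glucocorticoids (1.003 to 0.391 CPM, log2 -1.48 ± 0.32, adjusted p = 0.0019). Without the 5 libraries of the series that stood apart in depth or transcript length, mutant replicate 1 among them, 5 were higher and 2 lower, and with GC and length offsets 3 were higher. Neither Hsp90aa1 (log2 0.05) nor Hsp90ab1 (log2 0.05), the chaperones that hold the unbound receptor, passed the test.

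Across the transcriptome the genotypes differed at 2861 of 15221 tested genes, or 18.8%, at an adjusted p below 0.05 (edgeR quasi-likelihood test, Benjamini-Hochberg over all tested genes). Genes past that threshold are referred to as called. The mutant was higher at 1322 (8.69%) and lower at 1539 (10.1%). Most called differences were small, with a median absolute log2 difference of 0.50. A difference of at least 2-fold was called at 290 genes in the higher direction (1.91%) and at 319 in the lower direction (2.1%). The median log2 difference of all tested genes was -0.01. Without mutant replicate 1, 2391 genes were called, of which 2181 were among the 2861, or 76.2% of them. Leaving out those 5 libraries gave 4620 calls, 2248 higher and 2372 lower.

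Lgr5, Prdm1, Rgs5 and Des, which mark cell states of the mesenchyme, were all called. Lgr5 (ENSMUSG00000020140, chr10:115450311-115587780), a receptor that binds R-spondins and strengthens WNT signalling, was read at 3.37, 2.57 and 2.27 CPM in the 3 wild-type libraries and 38.1, 32.5 and 36.5 CPM in the 3 mutant libraries. Every mutant library lay far above every wild-type library, as was the case in that direction, at any distance, for 17% of all tested genes. The mean was 13.04-fold higher in the mutant (2.74 ± 0.566 against 35.7 ± 2.89 CPM, mean ± SD, n = 3; log2 difference 3.72 ± 0.11, adjusted p = 5.19e-16). Prdm1 (ENSMUSG00000038151, chr10:44437177-44528501) encodes the repressor Blimp1, which marks progenitors in dermis and other tissues. It was read at 0.1898, 0.131 and 0.165 CPM in the wild type, close to the floor of 3 reads, and at 1.59, 1.66 and 2.19 CPM in the mutant. The groups did not overlap, and the mean was 11.2-fold higher (log2 difference 3.43 ± 0.31, adjusted p = 2.18e-08).

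Rgs5 and Des went the other way. Rgs5 (ENSMUSG00000026678, chr1:169655501-169695813), a regulator of G-protein signalling used as a pericyte marker, was read at 56.1, 55.7 and 56.4 CPM in the wild type and 6.42, 5.61 and 5.57 CPM in the mutant. The wild-type libraries were almost equal and all mutant libraries lay below them, as at 19.8% of all tested genes, and the mean was 9.55-fold lower in the mutant (log2 difference -3.24 ± 0.09, adjusted p = 6.21e-17). Des (ENSMUSG00000026208, chr1:75360329-75368579), the intermediate filament desmin of muscle and mural cells, was read at 50.8, 59.2 and 60.5 CPM in the wild type and 12.2, 14.9 and 13.2 CPM in the mutant. Again the groups were far apart, with the mean 4.24-fold lower (log2 difference -2.10 ± 0.10, adjusted p = 1.45e-12). In bulk cultures, fewer cells of a type and less RNA per cell cannot be told apart. The promoter windows of Prdm1, Rgs5 and Des in the RefSeq table held none of the motifs searched below, and Lgr5 was not matched there.

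**Figure D1:**
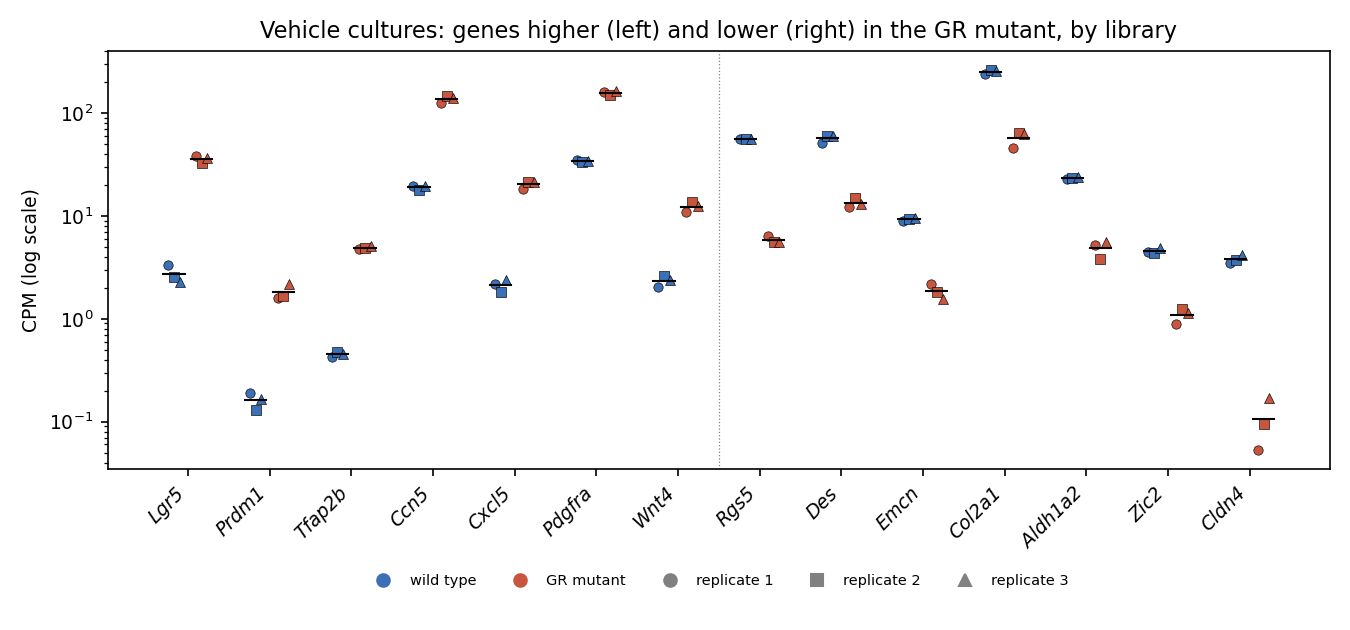
Level in CPM on a log axis for 14 genes in each of the 6 vehicle libraries, with a marker shape per replicate and a line at each group's mean. The 7 genes on the higher side, from Lgr5 to Wnt4, have every mutant library above every wild-type library, and the 7 on the lower side, from Rgs5 to Cldn4, have every mutant library below.

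Among the 15 largest called increases were further regulators and signalling genes. Tfap2b, an AP-2 transcription factor of neural crest and limb, was read at 0.427, 0.48 and 0.455 CPM in the wild type and 4.73, 4.898 and 5.06 CPM in the mutant. Wild-type libraries were uniformly low and mutant libraries uniformly high (10.8-fold; log2 difference 3.41 ± 0.22, adjusted p = 9.55e-11). Bcl11b, a zinc-finger transcription factor, was 5.95-fold higher (1.88 to 11.2 CPM, log2 2.55 ± 0.17, adjusted p = 2.43e-10). Adh7, an alcohol dehydrogenase that can act on retinol, was 7.21-fold higher (1.33 to 9.55 CPM, log2 2.83 ± 0.13, adjusted p = 6.98e-13). The matrix protein dermatopontin, Dpt, was 5.48-fold higher (1.48 to 8.08 CPM, log2 2.45 ± 0.13, adjusted p = 5.16e-12), and Ccn5, a secreted matricellular protein, 7.23-fold higher (19.1 to 138 CPM, log2 2.85 ± 0.09, adjusted p = 1.14e-15). Il31ra, a subunit of the interleukin-31 receptor, had 0.237, 0.175 and 0.165 CPM in the wild type and 2.31, 1.33 and 1.898 CPM in the mutant (log2 difference 3.27 ± 0.30, adjusted p = 3.12e-08). Folr2, a folate receptor found on macrophages, Upk3b, a uroplakin of mesothelium, Cav3, a muscle caveolin, and U90926 were also in this group.

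The 15 largest called decreases included several genes that were nearly silent in the mutant. Cldn4, a claudin of epithelial tight junctions, was read at 3.46, 3.71 and 4.22 CPM in the wild type and 0.0529, 0.0951 and 0.169 CPM in the mutant. The mutant libraries sat around the floor of 3 reads, and the mean was 35.96-fold lower (log2 difference -5.32 ± 0.32, adjusted p = 3.33e-11). Kcna5, a voltage-gated potassium channel, had 1.71, 2.79 and 2.604 CPM against 0.0706, 0 and 0.0844 CPM (log2 difference -5.23 ± 0.41, adjusted p = 2.91e-09). Folh1, a glutamate carboxypeptidase, was called lower with 3 reads in all mutant libraries together, too few for a fold. The same held for Mid1-ps1, a pseudogene similar to Mid1 whose reads cannot be assigned with certainty. Nkx6-1, a homeobox factor, was 7.07-fold lower (1.16 to 0.164 CPM, log2 -2.76 ± 0.36, adjusted p = 4.30e-06). Selp, the adhesion receptor P-selectin of platelets and endothelium, was 6.57-fold lower (5.82 to 0.886 CPM, log2 -2.72 ± 0.18, adjusted p = 2.29e-10). Others were Bmp7, Lrrc3b, F2rl2 (a protease-activated receptor), Arhgap36, Ackr4 (a scavenger of chemokines) and Akap5 (an anchor for protein kinase A). Hist1h2ab and Hist1h3b were also in this group but belong to families of near-identical histone copies and are uncertain.

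To see which kinds of genes differed, 35 lists of lineage, matrix, signalling, immune and housekeeping genes were counted. Most had a larger share of called members than the 18.8% of all tested genes, often with members in both directions. Within these lists, up to 4 called genes per direction were named by the size of the difference, and further members named below were picked for their roles with their values known. A list is described by its counts and its median log2 difference, and no test was made on a list as a whole.

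**Figure D2:**
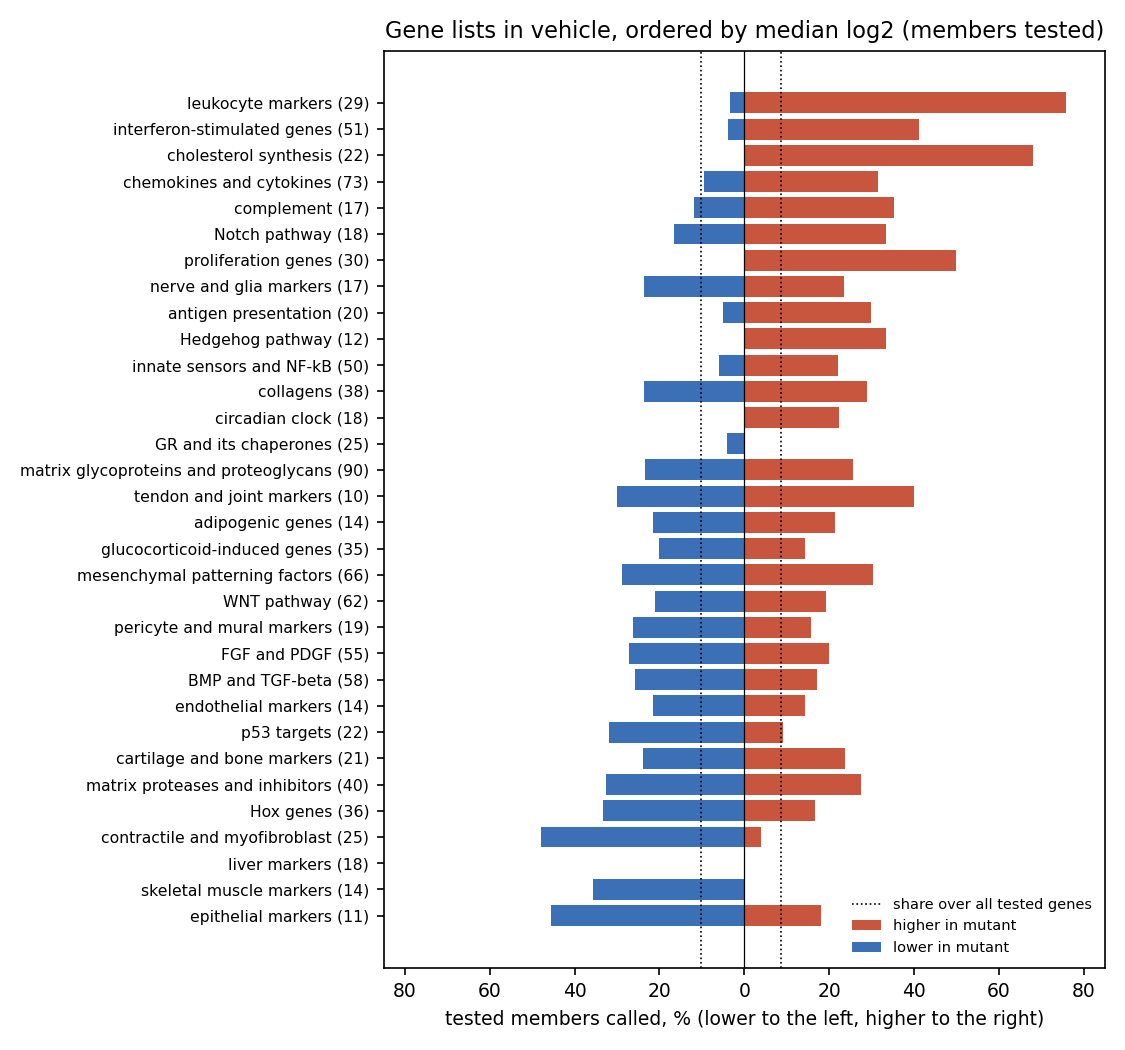
For each list with at least 10 tested members, bars give the percentage of tested members called higher (right) or lower (left) in the mutant, and dotted lines mark the 8.69% and 10.1% of all tested genes. Macrophage-rich leukocyte markers and cholesterol synthesis genes lie mostly on the higher side, and contractile and skeletal muscle genes on the lower side.

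Called contractile genes were lower in the mutant with 1 exception. Of 25 tested, 12 were lower and 1 was higher, with a median log2 difference of -0.24, whereas 10.1% of all tested genes were lower. Myh11, the smooth muscle myosin heavy chain, was read at 33.5, 32.3 and 35.96 CPM in the wild type and 15.9, 17.7 and 17.8 CPM in the mutant. The groups did not overlap, and the mean was 1.98-fold lower (log2 difference -0.99 ± 0.07, adjusted p = 5.63e-10). Calponin, Cnn1, was 1.82-fold lower (266 to 146 CPM, log2 -0.86 ± 0.08, adjusted p = 5.95e-08), and the smooth muscle actin Actg2 1.54-fold lower (382 to 249 CPM, log2 -0.62 ± 0.06, adjusted p = 6.53e-08). Members with high counts had small differences: Acta2, the actin that defines myofibroblasts, was at 4458 ± 63.9 CPM in the wild type and 3889.5 ± 242 CPM in the mutant (log2 difference -0.20 ± 0.07, adjusted p = 0.0438), and Tagln showed a log2 difference of -0.33 ± 0.08, adjusted p = 0.004. Integrin subunits that bind fibronectin were lower as well, Itga5 by -0.39 ± 0.04 and Itgb1 by -0.49 ± 0.05 on the log2 scale as mutant minus wild type (adjusted p = 6.19e-07 and 3.60e-07). The single higher member, Lmod1, lost its call without mutant replicate 2 or wild-type replicate 1. Srf (log2 -0.10) and Myocd (log2 -0.42), which drive smooth muscle transcription, did not pass the test.

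Markers of pericytes and other mural cells did not move together. Of 19 tested, 5 were lower and 3 higher. The summed level of the 20 listed was 961 to 1012 CPM in the wild type and 938 to 1074 CPM in the mutant. A large part of that sum was Pdgfrb, described below, with means of 384 and 550 CPM. The sum therefore does not show how the other members differed. Beside Rgs5 and Des, the lower members were Rgs4 (58.4 to 42.6 CPM, log2 -0.46 ± 0.07, adjusted p = 3.02e-05), the receptor Notch3 (30.7 to 21.7 CPM, log2 -0.52 ± 0.13, adjusted p = 0.00425) and Mcam, whose log2 difference was only -0.15 ± 0.04 (adjusted p = 0.0088). Pdgfrb, the platelet-derived growth factor receptor that both pericytes and fibroblasts carry, was higher, at 369, 394 and 388 CPM in the wild type and 504, 580.3 and 565 CPM in the mutant (log2 difference 0.52 ± 0.05, adjusted p = 1.39e-07). All mutant libraries lay above all wild-type libraries. Cspg4 (log2 -0.20) and Abcc9 (log2 0.32), other pericyte markers, did not pass the test.

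Endothelial genes split in the same way. Of 14 tested, 2 were higher and 3 lower (2 lower without mutant replicate 1). Emcn, the endothelial sialomucin endomucin, was read at 8.87, 9.43 and 9.59 CPM in the wild type and 2.17, 1.81 and 1.56 CPM in the mutant, with the groups far apart (5.04-fold lower; log2 difference -2.29 ± 0.12, adjusted p = 3.83e-12). Kdr, a receptor for vascular endothelial growth factor, was 2.02-fold lower (16.5 to 8.14 CPM, log2 -1.02 ± 0.12, adjusted p = 1.67e-06). Its relative Flt1 was 1.62-fold higher (56.4 to 91.4 CPM, log2 0.70 ± 0.08, adjusted p = 9.32e-07). Defining endothelial genes were nearly missing in both genotypes: Pecam1, Tie1, Cldn5 and Robo4 did not pass the filter on low counts, and Cdh5 was tested with a log2 difference of -0.01. The summed level of the 20 listed markers was 125 to 132 CPM in the wild type and 132 to 146 CPM in the mutant. Flt1, with means of 56.4 and 91.4 CPM, made up a large part of it, so the sum does not show how the other markers differed.

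Called skeletal muscle markers were all lower. Of 14 tested, 0 were higher and 5 lower (4 without mutant replicate 1), with a median of -0.60, and the sum of all 27 listed was 157 to 175 CPM in the wild type and 81.5 to 92.1 CPM in the mutant. Des, which is also in the contractile and pericyte lists, was 1 of the 5 lower genes. It made up a large part of the difference in the sum, with means of 56.8 and 13.4 CPM. Acta1, the skeletal actin, had 30.2, 37.8 and 36 CPM in the wild type and 16.7, 21.6 and 20.4 CPM in the mutant (log2 difference -0.84 ± 0.13, adjusted p = 6.62e-05). Tnni1, slow troponin I, was 2.704-fold lower (1.72 to 0.637 CPM, log2 -1.49 ± 0.26, adjusted p = 2.02e-04). The factors that define the muscle lineage, Myod1, Myf5, Myog and Pax7, did not pass the filter on low counts in these cultures.

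Skeletal and connective tissue markers went in both directions. Col2a1, the main collagen of cartilage, was read at 242, 264 and 255 CPM in the wild type and 46.03, 63.95 and 62.7 CPM in the mutant. No libraries of the groups came near each other, and mutant replicate 1 was the lowest (4.403-fold lower; log2 difference -2.15 ± 0.13, adjusted p = 9.00e-11). Sox5, a cofactor of cartilage differentiation, was 1.82-fold lower (4.097 to 2.25 CPM, log2 -0.86 ± 0.16, adjusted p = 3.37e-04), while Sox9, the cartilage master regulator (log2 0.11), and Acan (log2 0.13) did not pass the test. Of 21 cartilage and bone markers tested, 5 were higher and 5 lower. On the bone side, the homeobox factor Dlx5 was 2.73-fold lower (2.397 to 0.878 CPM, log2 -1.51 ± 0.23, adjusted p = 3.14e-05), while osteomodulin, Omd, was 4.05-fold higher (0.7802 to 3.16 CPM, log2 2.01 ± 0.20, adjusted p = 1.23e-07) and the osteoblast factor Sp7 2.54-fold higher (0.793 to 2.02 CPM, log2 1.35 ± 0.30, adjusted p = 0.00213). Of 10 tendon and joint markers, 4 were higher and 3 lower, and without mutant replicate 1 the lower count was 1, the tendon membrane protein Tnmd (63.2 to 38.3 CPM, log2 -0.72 ± 0.07, adjusted p = 1.55e-07). Thbs4, a thrombospondin of tendon and muscle, was 2.24-fold higher (3.34 to 7.49 CPM, log2 1.15 ± 0.17, adjusted p = 2.36e-05), and the joint-forming factor Osr2 2.53-fold higher (0.921 to 2.33 CPM, log2 1.32 ± 0.24, adjusted p = 3.20e-04).

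Genes of fat cells showed a mixed pattern, with 3 of 14 higher and 3 lower. Lpl, the lipase that frees fatty acids from lipoproteins, was read at 17.5, 14.5 and 16.4 CPM in the wild type and 50.2, 48.4 and 49.6 CPM in the mutant, with all mutant libraries well above (3.06-fold; log2 difference 1.61 ± 0.08, adjusted p = 1.03e-12). The fatty acid transporter Cd36 was 1.82-fold higher (4.96 to 9.01 CPM, log2 0.87 ± 0.17, adjusted p = 5.19e-04). Cebpa, an adipogenic transcription factor, was lower (9.95 to 6.42 CPM, log2 -0.64 ± 0.10, adjusted p = 4.36e-05), as were the lipid droplet proteins Plin2 and Plin4 (log2 -0.44 and -0.86). Pparg, the master regulator of adipocytes, had a log2 difference of -0.00, which did not pass the test.

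Epithelial transcripts were low in both genotypes, with called members in both directions. Of 11 tested, 2 were higher and 5 lower, and the list summed to 58.1 to 62.6 CPM in the wild type and 34.0 to 40.03 CPM in the mutant. Krt18, a simple-epithelium keratin, was read at 9.97, 9.78 and 11.4 CPM and 3.299, 3.61 and 3.37 CPM (log2 difference -1.60 ± 0.14, adjusted p = 8.90e-09). The desmosomal protein Dsp was 2.31-fold lower (3.43 to 1.48 CPM, log2 -1.20 ± 0.20, adjusted p = 8.30e-05) and the splicing regulator Esrp2 1.83-fold lower (5.11 to 2.78 CPM, log2 -0.90 ± 0.14, adjusted p = 3.51e-05). Defining epithelial genes, Epcam, Cdh1 and Krt5, did not pass the filter on low counts. Called neural transcripts differed in direction between the 8 neuronal and 9 glial markers tested, but not in every fit. All 4 called neuronal genes were lower, among them Stmn2 (11.2 to 6.95 CPM, log2 -0.68 ± 0.09, adjusted p = 5.08e-06) and the neurofilament Nefm (5.65 to 2.91 CPM, log2 -0.96 ± 0.16, adjusted p = 1.11e-04). All 4 called glial genes were higher, among them the nerve growth factor receptor Ngfr (1.34 to 2.89 CPM, log2 1.11 ± 0.17, adjusted p = 2.96e-05) and the neural crest factor Sox10 (0.132 to 0.635 CPM, log2 2.16 ± 0.43, adjusted p = 7.85e-04). Only 2 of the 4 lower calls held without mutant replicate 3 or wild-type replicate 3.

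Hox genes, which record the position of a cell along the body and limb axes, were called in both directions. Of 36 tested, 6 were higher and 12 lower. In the Hoxa cluster 8 of 11 were lower and 0 higher, with a median log2 difference of -0.69. Hoxa5 was read at 19.6, 19.4 and 20.3 CPM in the wild type and 7.798, 9.13 and 8.35 CPM in the mutant, and the groups did not overlap (2.34-fold lower; log2 difference -1.24 ± 0.10, adjusted p = 2.00e-09). Hoxa2, Hoxa3 and Hoxa4 showed log2 differences of -1.21, -1.07 and -1.14, and Hoxa10 and Hoxa11, from the other end of the cluster, of -0.34 and -0.44. In the Hoxc cluster the direction was opposite, with 5 of 9 higher, 0 lower and a median of 0.49. Hoxc10 was read at 9.06, 8.204 and 7.89 CPM and 13.8, 13.7 and 15.6 CPM (1.71-fold higher; log2 difference 0.77 ± 0.10, adjusted p = 2.10e-06), and Hoxc13 was 2.23-fold higher (0.951 to 2.13 CPM, log2 1.15 ± 0.20, adjusted p = 1.77e-04). Of 8 Hoxb genes 0 were higher and 2 lower (1 without mutant replicate 1), or 25% against 18.8% of all tested genes. Of 8 Hoxd genes, 2 were lower, Hoxd10 and Hoxd12 (9.17 to 4.196 CPM, log2 -1.14 ± 0.12, adjusted p = 3.16e-07), and 1 was higher, Hoxd8 (5.62 to 11.4 CPM, log2 1.03 ± 0.11, adjusted p = 1.84e-07). The difference between the clusters was not tested.

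**Figure D3:**
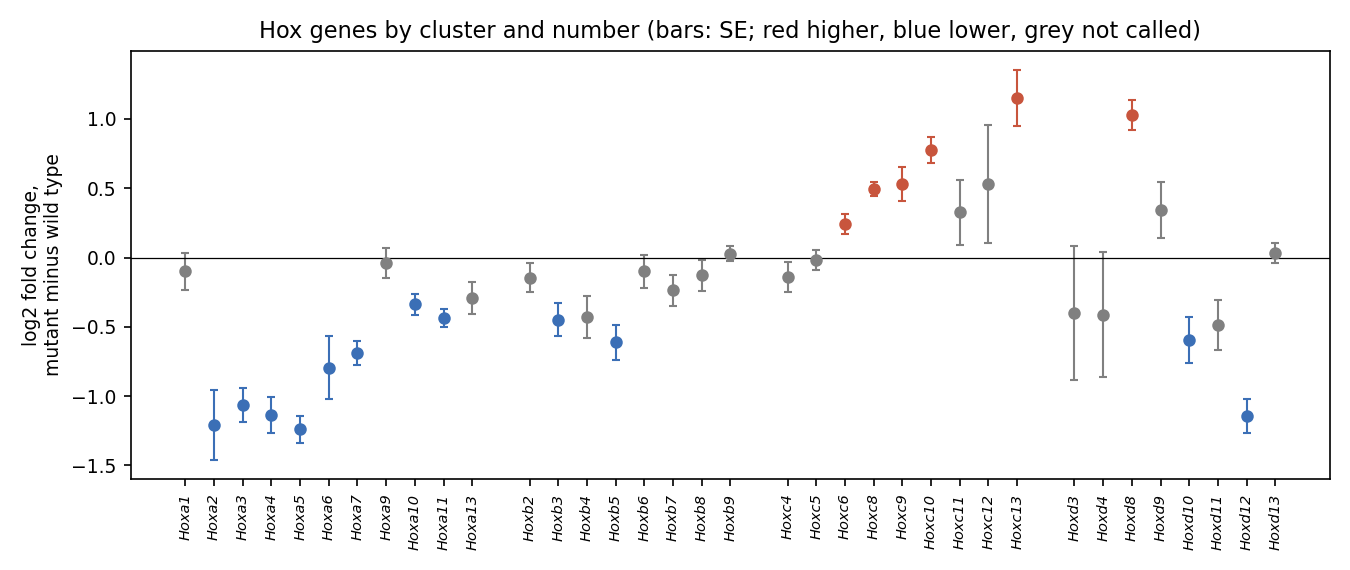
Log2 difference, mutant minus wild type in vehicle, with its standard error, for each tested Hox gene ordered by cluster and number. Red points were called higher, blue points lower, and grey points were not called. Called Hoxa and Hoxb genes lie below zero, called Hoxc genes above it, and Hoxd8 stands above while Hoxd10 and Hoxd12 stand below.

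Other factors that pattern limb, trunk and face mesenchyme were often called, 20 higher and 19 lower of 66 tested, 59.1% in all. Zic1, Zic2, Zic4 and Zic5, factors that act in dorsal midline and somite mesenchyme, were lower. Zic2 was read at 4.41, 4.32 and 4.92 CPM in the wild type and 0.882, 1.24 and 1.14 CPM in the mutant (4.19-fold lower; log2 difference -2.11 ± 0.23, adjusted p = 3.57e-07), and Zic1, Zic4 and Zic5 had log2 differences of -1.11, -1.67 and -1.82, all called. The forkhead factors Foxc1, Foxc2 and Foxd1 were lower, with Foxc2 at a log2 difference of -0.53, Foxc1 at 29.9, 30.2 and 31.1 CPM and 10.5, 12.8 and 11.9 CPM (log2 difference -1.38 ± 0.08, adjusted p = 7.68e-12) and Foxd1 2.65-fold lower (8.21 to 3.101 CPM, log2 -1.44 ± 0.17, adjusted p = 1.18e-06). Pax1 (5.78 to 2.81 CPM, log2 -1.05 ± 0.13, adjusted p = 3.01e-06) and Meox1 (13.6 to 7.58 CPM, log2 -0.84 ± 0.09, adjusted p = 1.74e-07), both factors of the somite, were lower too. On the higher side were the Iroquois genes Irx1 and Irx2 (log2 1.42 and 1.003), the LIM factors Lhx2 and Lhx8 (log2 1.57 and 2.41) and En1, which marks ventral limb ectoderm and a dermal fibroblast lineage (5.94 to 11.7 CPM, log2 0.94 ± 0.16, adjusted p = 1.12e-04). Prrx1, a general limb mesenchyme factor, was at 447 ± 5.33 CPM in the wild type and 568 ± 4.62 CPM in the mutant (log2 difference 0.35 ± 0.07, adjusted p = 0.00149). Aldh1a2, the enzyme that makes retinoic acid in embryonic mesenchyme and a gene outside the lists chosen after its values were seen, was read at 22.8, 23.6 and 24.2 CPM and 5.17, 3.804 and 5.57 CPM, with the mutant lower in every library (log2 difference -2.26 ± 0.11, adjusted p = 8.06e-13).

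Collagen genes were called in both directions. Of 38 tested, 11 were higher and 9 lower, 52.6% in all. The collagen VI chains, which form beaded filaments around cells, were all higher where tested. Col6a3 was read at 395, 389 and 408 CPM in the wild type and 1026, 1108 and 1246 CPM in the mutant, and every mutant library exceeded every wild-type library (2.84-fold; log2 difference 1.503 ± 0.10, adjusted p = 1.39e-10). Col6a1 was 2.19-fold higher (414 to 908 CPM, log2 1.13 ± 0.06, adjusted p = 1.02e-11) and Col6a2 2.65-fold higher (206 to 547 CPM, log2 1.41 ± 0.09, adjusted p = 1.03e-10). Of the fibrillar collagens, Col3a1 was 1.42-fold higher (1588 to 2252 CPM, log2 0.50 ± 0.06, adjusted p = 8.40e-07), Col11a1 was 1.57-fold lower (494 to 315 CPM, log2 -0.65 ± 0.07, adjusted p = 6.28e-07), and the chains of collagen I, Col1a1 (log2 0.13) and Col1a2 (log2 0.15), did not pass the test. Basement membrane collagens split: Col4a1 and Col4a2, the main chains, had log2 differences of -0.48 and -0.50 (adjusted p = 3.51e-05 and 1.91e-04), while Col15a1 was read at 3.99, 3.53 and 5.08 CPM against 15.4, 17.97 and 17 CPM (3.99-fold higher; log2 difference 1.99 ± 0.11, adjusted p = 1.71e-11). Col18a1, the source of endostatin, was 2.24-fold higher (28.9 to 64.6 CPM, log2 1.15 ± 0.09, adjusted p = 3.41e-09).

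Among the other matrix proteins 23 of 90 were higher and 21 lower, and several small leucine-rich proteoglycans were on the higher side. Prelp was read at 5.13, 4.98 and 4.92 CPM in the wild type and 18.7, 20.1 and 19.9 CPM in the mutant (3.91-fold higher; log2 difference 1.96 ± 0.09, adjusted p = 9.05e-13). Lumican, decorin, fibromodulin and asporin, which bind collagen fibrils, were all higher, with log2 differences of 1.29, 0.67, 0.69 and 0.87 for Lum, Dcn, Fmod and Aspn, while Bgn (log2 0.10) and Ogn (log2 -0.11) did not pass the test. Proteoglycans as a class had 8 of 24 higher and 3 lower. The lower ones were the heparan sulphate carriers Gpc3 (83.2 to 42.4 CPM, log2 -0.97 ± 0.06, adjusted p = 9.00e-11), Gpc4 and Sdc2. Fibronectin, Fn1, a glycoprotein that links cells to collagen, was read at 11512, 11861 and 12286 CPM and 6926, 7212 and 8415 CPM, all mutant libraries lying below (1.58-fold; log2 difference -0.66 ± 0.12, adjusted p = 3.92e-04). Thrombospondin 1, Thbs1, was 1.45-fold lower (10949.5 to 7532 CPM, log2 -0.54 ± 0.09, adjusted p = 9.75e-05), and Mgp, an inhibitor of mineralisation, 2.12-fold lower (403 to 189.8 CPM, log2 -1.09 ± 0.10, adjusted p = 8.49e-08).

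The CCN proteins, secreted regulators bound to matrix, went in opposite directions. Ccn5 had 19.7, 17.9 and 19.5 CPM in the wild type and 125, 147 and 141 CPM in the mutant, and Ccn3 was 1.88-fold higher (37.03 to 69.7 CPM, log2 0.91 ± 0.13, adjusted p = 2.96e-05). Ccn2, a target of TGF-beta and of YAP, was 1.65-fold lower (1129.7 to 684 CPM, log2 -0.72 ± 0.05, adjusted p = 1.03e-10), and Ccn1 (log2 -0.11) did not pass the test. Periostin, Postn, was 1.74-fold higher (1625 to 2836 CPM, log2 0.80 ± 0.06, adjusted p = 4.07e-09), and tenascin-N, Tnn, 3.57-fold higher (6.99 to 24.9 CPM, log2 1.83 ± 0.13, adjusted p = 6.67e-10). Laminin alpha chains differed in direction, with Lama4 2.44-fold higher (63.1 to 154 CPM, log2 1.28 ± 0.08, adjusted p = 9.00e-11) and Lama5 1.71-fold lower (87.4 to 51.1 CPM, log2 -0.78 ± 0.13, adjusted p = 8.30e-05). Among enzymes that crosslink collagen 2 of 11 were higher and 4 lower: Plod2 was 1.84-fold lower (257 to 140.0 CPM, log2 -0.88 ± 0.07, adjusted p = 1.46e-09) and Loxl2 1.63-fold lower (756 to 465 CPM, log2 -0.70 ± 0.04, adjusted p = 1.03e-10), while Loxl3 was 1.59-fold higher (238 to 377 CPM, log2 0.66 ± 0.05, adjusted p = 2.28e-09). Of 40 proteases and inhibitors that turn matrix over, 11 were higher and 13 lower. Gelatinase A, Mmp2, was read at 429.6, 438 and 431 CPM and 244, 245 and 249 CPM (1.76-fold lower; log2 difference -0.81 ± 0.04, adjusted p = 8.06e-13), the macrophage elastase Mmp12 was 3.05-fold higher (0.651 to 1.99 CPM, log2 1.65 ± 0.20, adjusted p = 2.13e-06), Timp2 had a log2 difference of -0.43 and Timp3 of 0.59, both called.

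WNT signalling starts when secreted ligands bind Frizzled receptors, and R-spondins strengthen it through the LGR receptors. Of 62 tested genes of the pathway 12 were higher and 13 lower, a share of 40.3% against 18.8% of all genes, with a median of -0.06. Ligands split into 4 higher and 3 lower. Wnt4 was read at 2.04, 2.62 and 2.397 CPM in the wild type and 10.96, 13.6 and 12.4 CPM in the mutant, with the groups far apart (5.24-fold higher; log2 difference 2.37 ± 0.13, adjusted p = 9.84e-12). Wnt10a was 5.58-fold higher (0.205 to 1.14 CPM, log2 2.39 ± 0.36, adjusted p = 3.02e-05), Wnt2b 1.82-fold lower (8.89 to 4.89 CPM, log2 -0.88 ± 0.15, adjusted p = 1.18e-04) and Wnt16 1.69-fold lower (13.1 to 7.73 CPM, log2 -0.77 ± 0.11, adjusted p = 1.13e-05). The R-spondins Rspo2 and Rspo3 were lower. Rspo3 had 29, 28.9 and 28.5 CPM in the wild type and 10.9, 10.7 and 12.2 CPM in the mutant (2.55-fold; log2 difference -1.35 ± 0.08, adjusted p = 4.25e-11), and Rspo2 was 1.91-fold lower (35.8 to 18.8 CPM, log2 -0.93 ± 0.07, adjusted p = 1.52e-09). Rspo1 (log2 0.21) did not pass the test. Of their receptors Lgr5 was higher, while Lgr4 (log2 0.12) and Lgr6 (log2 -0.21) did not pass the test.

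Of 15 WNT receptors 1 was higher, Ryk (216 to 279 CPM, log2 0.37 ± 0.04, adjusted p = 7.62e-08), and 5 were lower, with Fzd4 at a log2 difference of -0.58 ± 0.16 (adjusted p = 0.0133) and Ror1 at -0.51 ± 0.10 (adjusted p = 7.02e-04). Secreted inhibitors had 4 higher and 1 lower of 10 (0 lower without mutant replicate 1). Sfrp2, which binds WNT proteins, was 2.23-fold higher (6.19 to 13.8 CPM, log2 1.15 ± 0.14, adjusted p = 2.00e-06), and Apcdd1, a membrane-bound inhibitor, 1.8-fold higher (11.4 to 20.5 CPM, log2 0.84 ± 0.11, adjusted p = 4.59e-06). Inside the cell, Ctnnb1, the transducer beta-catenin, was lower by a small amount, at 984 ± 17.03 CPM in the wild type and 854 ± 11.2 CPM in the mutant (log2 difference -0.20 ± 0.04, adjusted p = 5.27e-04), and Wls, which carries WNT proteins to the surface, had a log2 difference of -0.38 ± 0.06 (adjusted p = 1.91e-05). Axin2, a widely used target, was read at 3.04, 2.71 and 2.98 CPM and 4.83, 5.04 and 5.78 CPM, higher in every mutant library (1.795-fold; log2 difference 0.84 ± 0.15, adjusted p = 1.92e-04). Of the other targets, Ccnd1 was called higher at a log2 difference of 0.19 ± 0.05, and Lef1 (log2 0.09), Nkd1 (log2 0.17) and Myc (log2 0.12) did not pass the test.

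In the BMP and TGF-beta family 10 of 58 genes were higher and 15 lower. Of 17 ligands, 7 were lower and 2 higher. Bmp7 was nearly silent in the mutant, with 0.617, 1.05 and 1.49 CPM in the wild type and 0.141, 0 and 0.0422 CPM in the mutant (log2 difference -3.57 ± 0.61, adjusted p = 1.45e-04). Bmp5 was 2.23-fold lower (8.55 to 3.84 CPM, log2 -1.15 ± 0.18, adjusted p = 7.21e-05) and Tgfb2 1.57-fold lower (66.8 to 42.6 CPM, log2 -0.65 ± 0.06, adjusted p = 1.30e-08). Among receptors Tgfbr3, the co-receptor betaglycan, was 2.09-fold higher (22.7 to 47.6 CPM, log2 1.07 ± 0.10, adjusted p = 2.60e-08). Of 15 intracellular and target genes 2 were higher and 2 lower, or 26.7% against 18.8% of all tested genes, with a median of 0.01. Without mutant replicate 1, 3 were higher and 1 lower. Id2 and Id4, which BMP signals induce, had log2 differences of 0.59 and 0.97, and Smad7, which TGF-beta induces, of -0.22, all called.

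Notch and Hedgehog targets included called genes on the higher side. Of 5 Notch targets tested 4 were higher and 0 lower. Nrarp was read at 0.427, 0.349 and 0.289 CPM in the wild type and 1.76, 1.62 and 1.603 CPM in the mutant (4.68-fold higher; log2 difference 2.23 ± 0.33, adjusted p = 2.75e-05), Hey1 was 2.196-fold higher (3.58 to 7.85 CPM, log2 1.13 ± 0.14, adjusted p = 1.85e-06), Heyl 2.195-fold higher (4.19 to 9.21 CPM, log2 1.13 ± 0.13, adjusted p = 6.03e-07), and Hes1 1.37-fold higher (30.2 to 41.4 CPM, log2 0.45 ± 0.09, adjusted p = 0.0012). The ligand Jag1 was 1.63-fold higher (58.1 to 94.8 CPM, log2 0.71 ± 0.07, adjusted p = 2.36e-07) and the non-canonical ligand Dlk1 1.78-fold higher (59.96 to 107 CPM, log2 0.83 ± 0.13, adjusted p = 5.23e-05). The receptors Notch3 and Notch4 were lower (log2 -0.52 and -1.34), and the more widely expressed Notch1 (log2 0.36) and Notch2 (log2 -0.03) did not pass the test. In the Hedgehog pathway 4 of 12 were higher (3 without mutant replicate 1) and 0 lower. Gas1, a co-receptor, had 33.5, 29.1 and 31.5 CPM in the wild type and 60.8, 68.9 and 69.1 CPM in the mutant (2.11-fold; log2 difference 1.08 ± 0.08, adjusted p = 1.80e-09), and Hhip, an inhibitor that the pathway induces, was 1.61-fold higher (2.94 to 4.72 CPM, log2 0.68 ± 0.14, adjusted p = 0.0013). The target Ptch1 (log2 -0.22) did not pass the test.

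Growth factor genes of the FGF, PDGF, VEGF and IGF families had 11 of 55 higher and 15 lower, and the higher count was 7 without wild-type replicate 3. Pdgfra, the receptor that marks fibroblast and mesenchymal progenitors, was read at 34.6, 33.6 and 34.1 CPM in the wild type and 159, 150.3 and 163 CPM in the mutant. No libraries of the groups came near each other (4.61-fold higher; log2 difference 2.21 ± 0.10, adjusted p = 2.16e-13). The platelet-derived ligands Pdgfa, Pdgfc and Pdgfd were lower, with log2 differences of -0.60, -0.38 and -0.61. Igf2, a fetal growth factor, was read at 2362, 2342 and 2327 CPM and 1259, 1439 and 1397 CPM, with every mutant library below (1.72-fold; log2 difference -0.78 ± 0.05, adjusted p = 4.25e-11). Igf2r, which clears it, was lower as well (758 to 521 CPM, log2 -0.54 ± 0.12, adjusted p = 0.00259). Fgf2 was 1.56-fold lower (109 to 69.7 CPM, log2 -0.65 ± 0.09, adjusted p = 6.17e-06) and Fgf10 1.41-fold higher (15.9 to 22.4 CPM, log2 0.50 ± 0.13, adjusted p = 0.00955). Kitl, the ligand of Kit, was 1.87-fold higher (11.2 to 20.9 CPM, log2 0.90 ± 0.13, adjusted p = 2.03e-05), and Vegfd 1.67-fold higher (17.8 to 29.9 CPM, log2 0.75 ± 0.06, adjusted p = 8.85e-09). Of 8 feedback inhibitors of receptor signalling 1 was higher and 1 lower, or 25% against 18.8% of all tested genes. Of 4 listed targets 0 were called. Dusp6 (log2 -0.04), Spry4 (log2 -0.10) and Etv4 (log2 0.07) did not pass the test.

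Macrophage markers were mostly higher in the mutant. Of 27 tested, 22 were higher and 0 lower, with a median log2 difference of 0.95, whereas 8.69% of all tested genes were higher. Csf1r, the receptor for macrophage colony-stimulating factor, was read at 10.2, 10.8 and 10.7 CPM in the wild type and 23.4, 26.6 and 26.4 CPM in the mutant. Both groups were tight and did not overlap (2.41-fold higher; log2 difference 1.26 ± 0.08, adjusted p = 5.05e-11). Adgre1, which encodes the F4/80 antigen, was 2.65-fold higher (2.77 to 7.33 CPM, log2 1.40 ± 0.12, adjusted p = 1.99e-08), the lysozyme gene Lyz2 2.56-fold higher (45.97 to 118 CPM, log2 1.36 ± 0.07, adjusted p = 3.09e-12), the mannose receptor Mrc1 2.86-fold higher (1.85 to 5.29 CPM, log2 1.51 ± 0.15, adjusted p = 1.03e-07) and the complement component C1qa 2.33-fold higher (3.88 to 9.05 CPM, log2 1.20 ± 0.15, adjusted p = 2.04e-06). The summed level of the 40 listed leukocyte markers was 150, 155 and 147 CPM in the wild type and 321, 317 and 324 CPM in the mutant. This sum was nearly equal within each genotype, mutant replicate 1 included. Ptprc, the pan-leukocyte marker CD45, was at 2.35 ± 0.303 CPM and 3.88 ± 0.317 CPM (log2 difference 0.73 ± 0.16, adjusted p = 0.00145). Of 12 listed markers of other leukocytes 2 passed the filter on low counts, and Cd3e, S100a8, Mpo and Cpa3 did not. Among the 2 tested, Kit was lower in the mutant (0.913 to 0.301 CPM, log2 -1.49 ± 0.39, adjusted p = 0.0086).

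Several ligands that act on myeloid cells, which fibroblasts also make, moved beside these markers. Csf1 was 1.35-fold higher (299 to 402 CPM, log2 0.43 ± 0.04, adjusted p = 2.91e-08), and the monocyte attractants Ccl2 and Ccl7 were 2.03-fold and 2.08-fold higher (log2 1.01 ± 0.08, adjusted p = 7.13e-09 and log2 1.05 ± 0.08, adjusted p = 1.55e-09). Ccl2 was read at 33.03, 35.2 and 35.8 CPM in the wild type and 65.9, 73.6 and 71.1 CPM in the mutant, with no overlap. Of 24 chemokines tested 9 were higher and 2 lower. The lower ones were Ccl17 (1.13 to 0.398 CPM, log2 -1.48 ± 0.30, adjusted p = 7.07e-04) and Cxcl12, which retains leukocyte precursors through CXCR4. Cxcl12 had 727, 736 and 736 CPM in the wild type and 337, 335 and 338 CPM in the mutant. Within each genotype its libraries were almost equal, and the mean was 2.17-fold lower in the mutant (log2 difference -1.12 ± 0.03, adjusted p = 5.19e-16). The part of the macrophage markers in other immune differences was not tested.

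In a cluster of neighbouring chemokine genes on chromosome 5, which includes ligands that attract neutrophils through CXCR2, Cxcl5, Cxcl1 and Ppbp were higher. Cxcl5 was read at 2.18, 1.83 and 2.397 CPM in the wild type and 18.1, 21.5 and 21.5 CPM in the mutant (9.53-fold higher; log2 difference 3.24 ± 0.13, adjusted p = 7.32e-14). Cxcl1 had 1.71, 1.31 and 1.69 CPM and 6.09, 5.896 and 5.74 CPM (3.76-fold; log2 difference 1.92 ± 0.14, adjusted p = 7.39e-10). Ppbp, a gene outside the lists that was chosen after its values were seen, had 1.09, 1.18 and 1.28 CPM and 5.08, 5.04 and 4.81 CPM (4.204-fold; log2 difference 2.07 ± 0.14, adjusted p = 2.16e-10). In all of them every mutant library lay above every wild-type library. Cxcl2 (log2 1.65), Cxcl3 (log2 0.79) and Pf4 (log2 0.40) of the same cluster did not pass the test. To show sequence beside called members, the promoter windows (250 bases before to 50 after the start, RefSeq, GRCm38.p6) of Cxcl1 and Ppbp are shown, at chr5:90890995-90891294 and chr5:90768268-90768567 on the plus strand. Capitals mark a motif of NF-kB sites (GGGA, any base, then TTTCC) in Cxcl1 and TGTTCT, the half-site of the glucocorticoid response element, in Ppbp. No window was matched for Cxcl5.
Cxcl1: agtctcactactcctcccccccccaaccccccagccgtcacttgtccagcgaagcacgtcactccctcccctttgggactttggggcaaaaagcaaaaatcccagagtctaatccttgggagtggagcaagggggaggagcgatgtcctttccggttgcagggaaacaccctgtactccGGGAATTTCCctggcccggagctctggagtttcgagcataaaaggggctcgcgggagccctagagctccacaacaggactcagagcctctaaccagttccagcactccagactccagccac
Ppbp: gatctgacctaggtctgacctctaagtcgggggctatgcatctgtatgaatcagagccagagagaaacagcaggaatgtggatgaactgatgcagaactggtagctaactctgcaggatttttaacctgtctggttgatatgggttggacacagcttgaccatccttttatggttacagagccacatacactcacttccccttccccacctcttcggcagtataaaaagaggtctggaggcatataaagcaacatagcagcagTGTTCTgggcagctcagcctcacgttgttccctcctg
Searched on both strands, the NF-kB motif was in 0.400% of the windows of genes called higher, 0.385% of those of genes called lower and 0.440% of those of all tested genes. TGTTCT was in 14.2%, 13.4% and 12.6% of these windows. Windows were matched for 981 of the 1322 higher and 1140 of the 1539 lower genes.

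Cytokines and their receptors followed with 5 higher and 1 lower of 21, and 9 higher and 4 lower of 28. These shares were 28.6% and 46.4%, against 18.8% of all tested genes. Among receptors for interleukin-1 family cytokines Il18rap was lower (14.8 to 10.5 CPM, log2 -0.49 ± 0.09, adjusted p = 5.49e-04) and others were higher: Il1r1 was read at 38.8, 36.8 and 37.2 CPM in the wild type and 87.7, 78.6 and 79.8 CPM in the mutant (2.18-fold; log2 difference 1.13 ± 0.08, adjusted p = 1.22e-09), Il1rl1, the receptor for interleukin-33, was 2.09-fold higher (335 to 702 CPM, log2 1.07 ± 0.08, adjusted p = 1.34e-09), and Il1rl2 2.34-fold higher (20.1 to 47 CPM, log2 1.23 ± 0.08, adjusted p = 2.02e-10). The cytokine Lif was 1.47-fold lower (28.1 to 19.1 CPM, log2 -0.57 ± 0.06, adjusted p = 5.28e-07). Interleukin-6 (Il6, log2 0.20) and interleukin-33 (Il33, log2 0.36) did not pass the test. Of 50 innate sensors and NF-kB genes 11 were higher and 3 lower, or 28% against 18.8% of all tested genes. The higher count was 7 without mutant replicate 1 or wild-type replicate 1. Ptx3, a soluble pattern receptor, was 2.16-fold higher (31.5 to 68.02 CPM, log2 1.11 ± 0.08, adjusted p = 2.75e-10). The lower ones were Ptgs2, the inducible cyclooxygenase (322 to 190.3 CPM, log2 -0.76 ± 0.13, adjusted p = 1.21e-04), Tnfaip3, an inhibitor of NF-kB (14.4 to 7.74 CPM, log2 -0.88 ± 0.09, adjusted p = 1.33e-07), and the kinase Irak2 (45.6 to 29.97 CPM, log2 -0.60 ± 0.05, adjusted p = 2.83e-09). Nfkbia, a direct NF-kB target, had a log2 difference of 0.07 and Tlr4, the LPS receptor, of -0.07, and neither passed the test.

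Of 17 complement genes 6 were higher and 2 lower, and the higher count was 3 without wild-type replicate 2. C5ar1, a receptor for the C5a fragment, was 1.97-fold higher (3.06 to 6.03 CPM, log2 0.98 ± 0.14, adjusted p = 1.58e-05), while Cd59a, which protects cells from complement, was lower, read at 44.2, 41.2 and 41.99 CPM and 16.6, 16.7 and 16.6 CPM (2.55-fold; log2 difference -1.35 ± 0.07, adjusted p = 3.72e-12). Of 20 antigen presentation genes 6 were higher and 1 lower. The class I chain H2-K1 was 1.52-fold higher (21.3 to 32.5 CPM, log2 0.60 ± 0.08, adjusted p = 9.40e-06) and the immunoproteasome subunit Psmb8 2.496-fold higher (0.957 to 2.39 CPM, log2 1.36 ± 0.19, adjusted p = 1.17e-05). B2m, the partner chain of class I, was lower, at 302, 295 and 296 CPM in the wild type and 246, 245 and 240.2 CPM in the mutant (log2 difference -0.29 ± 0.04, adjusted p = 4.47e-05). Class I genes are near-identical copies, so their counts are uncertain.

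The count of interferon-stimulated genes called higher varied with the libraries in the fit. Of 51 tested, 21 were higher and 2 lower, with a median of 0.70. Without mutant replicate 1 the higher count was 8, without wild-type replicate 1 it was 12, and with the 6 vehicle libraries alone it was 12. Without the 5 libraries that stood apart, mutant replicate 1 among them, 16 were higher and 4 lower. Isg15, a ubiquitin-like effector, shows the pattern, with 1.57, 1.397 and 1.69 CPM in the wild type and 4.09, 2.9 and 1.52 CPM in the mutant. Mutant replicate 1 was the highest and mutant replicate 3 lay within the wild-type range (log2 difference 0.98 ± 0.29, adjusted p = 0.021; without replicate 1 the log2 difference was 0.49 with adjusted p = 0.37). The 8 that were also called without replicate 1 were Oas1a, Dhx58, Xaf1, Trim25, Parp14, Stat2, Irf1 and Irf8. Trim25, a ubiquitin ligase of RNA sensing, had 26.7, 27.8 and 25.5 CPM and 50.5, 51.8 and 43.8 CPM (1.83-fold; log2 difference 0.87 ± 0.09, adjusted p = 1.13e-07), and the transcription factor Irf1 had 20.9, 20.9 and 20.99 CPM and 29.6, 29.3 and 26.5 CPM (1.36-fold; log2 difference 0.44 ± 0.06, adjusted p = 6.55e-06). In these both groups were tight and apart. Interferon-induced GTPases held both lower calls, with 1 higher and 2 lower of 13 tested, or 23.1% against 18.8% of all tested genes. They summed to 107 to 110 CPM in the wild type and 45.4 to 67.3 CPM in the mutant. Most of the sum in both genotypes was Irgm1, so it does not describe the class. The 13 tested had a median log2 difference of 0.41, and 10 were not called. Irgm1, 1 of the 2 lower ones, had 93.9, 95.4 and 90.8 CPM in the wild type and 46.05, 36.6 and 32.5 CPM in the mutant (2.43-fold lower, log2 difference -1.27 ± 0.10, adjusted p = 1.55e-09).

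**Figure D4:**
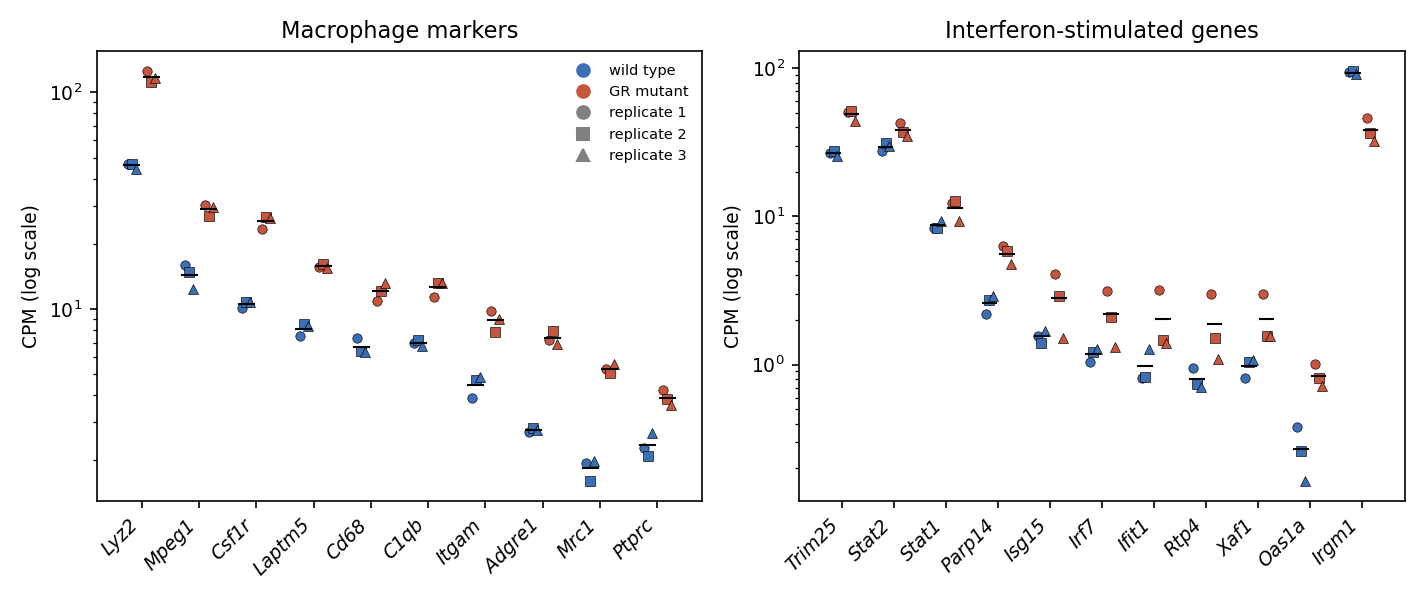
Level in CPM on a log axis, per vehicle library, of macrophage markers (left) and interferon-stimulated genes (right), with a line at each group's mean. The macrophage markers are higher in all 3 mutant libraries, whereas for many interferon-stimulated genes mutant replicate 1 stands above mutant replicates 2 and 3.

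Genes that glucocorticoids induce did not share a direction in vehicle. Of 35 tested, 5 were higher and 7 lower, with a median of 0.00. The direct targets Fkbp5 (log2 0.12), Per1 (log2 0.05) and Zbtb16 (log2 0.76) did not pass the test in vehicle, whereas with dexamethasone the mutant was lower at Fkbp5 and Per1, by log2 differences of -2.80 (adjusted p = 1.46e-19) and -1.95 (adjusted p = 1.74e-13). Tgm2, a transglutaminase, was lower already in vehicle, at 27.1, 28.5 and 30.7 CPM in the wild type and 11.4, 12.5 and 12.8 CPM in the mutant (2.35-fold; log2 difference -1.24 ± 0.09, adjusted p = 1.22e-09). Pdk4, a kinase that limits glucose oxidation, was 1.76-fold lower (16.4 to 9.32 CPM, log2 -0.80 ± 0.10, adjusted p = 4.71e-06), and the cell cycle inhibitor Cdkn1c 2.05-fold lower (32.3 to 15.7 CPM, log2 -1.05 ± 0.16, adjusted p = 3.92e-05). No library of the mutant overlapped the wild type at any of these. Periplakin, Ppl, and the decoy receptor Il1r2 were higher (log2 2.21 ± 0.26, adjusted p = 1.08e-06, and log2 2.67 ± 0.48, adjusted p = 2.46e-04).

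Sgk1, a kinase that regulates ion transport, and Tsc22d3, the gene of the leucine-zipper protein GILZ, are induced through response elements for GR. In vehicle both were slightly higher in the mutant. Sgk1 was read at 87.8, 85.1 and 88.9 CPM in the wild type and 107, 99.9 and 104 CPM in the mutant (1.19-fold; log2 difference 0.25 ± 0.05, adjusted p = 4.95e-04), and Tsc22d3 at 23.1, 21.7 and 21.8 CPM and 27.4, 25.6 and 27.2 CPM (1.204-fold; log2 difference 0.27 ± 0.07, adjusted p = 0.00469). With dexamethasone the mutant was lower: Sgk1 averaged 243 CPM in the wild type and 105 CPM in the mutant, and Tsc22d3 125 and 27.8 CPM. A palindrome of both half-sites, AGAACA and TGTTCT with any 3 bases between them, was searched on both strands and found in 3 of 32851 promoter windows and in 1 of 14078 windows of tested genes, which was a window of Sgk1. It is shown because it holds the element the altered domain would bind, and capitals mark the palindrome, which contains TGTTCT, and a further TGTTCT (RefSeq, GRCm38.p6, chr10:21993640-21993939, plus strand).
Sgk1: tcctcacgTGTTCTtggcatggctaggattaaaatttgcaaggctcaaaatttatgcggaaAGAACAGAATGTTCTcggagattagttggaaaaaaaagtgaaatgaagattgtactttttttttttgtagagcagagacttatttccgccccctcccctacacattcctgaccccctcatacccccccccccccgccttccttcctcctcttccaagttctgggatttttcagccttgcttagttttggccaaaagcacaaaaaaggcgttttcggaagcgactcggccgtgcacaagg
This window was 1 of 6 for Sgk1, and a match describes the letters only.

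Cell cycle and cholesterol synthesis genes differed by small amounts, with no called member lower. Of 30 cell cycle genes 15 were higher and 0 lower, with a median of 0.19. Mcm5, part of the replicative helicase, was read at 82.1, 81.1 and 85.9 CPM in the wild type and 92.3, 109 and 105 CPM in the mutant, all mutant libraries being higher (1.23-fold; log2 difference 0.29 ± 0.06, adjusted p = 0.0012). Mki67 (log2 0.32) did not pass the test. With GC and length offsets the higher count was 23. Of 22 cholesterol synthesis genes 15 were higher and 0 lower, a share of 68.2%, with a median of 0.31. Lss, which closes the sterol ring, had 134, 135 and 139 CPM and 179, 188 and 193 CPM (1.38-fold; log2 difference 0.46 ± 0.05, adjusted p = 1.05e-07), and Dhcr7, which makes the last step to cholesterol, was 1.38-fold higher (46.8 to 64.8 CPM, log2 0.47 ± 0.05, adjusted p = 1.12e-06). Of 22 p53 targets 2 were higher and 7 lower. Neither higher call held in every fit that left out a library, the count falling to 0 without mutant replicate 2, wild-type replicate 1 or wild-type replicate 2. Pmaip1, which encodes the cell death protein NOXA, was read at 191, 190.4 and 184 CPM in the wild type and 62.3, 59.96 and 55.3 CPM in the mutant (3.18-fold lower; log2 difference -1.67 ± 0.06, adjusted p = 1.14e-15). Cdkn1a, the p21 inhibitor, had a log2 difference of -0.20 ± 0.05 (adjusted p = 0.00691), far smaller. Of 18 clock genes 4 were higher and 0 lower, or 22.2%, near the 18.8% of all tested genes. Only Arntl (41.5 to 52.5 CPM, log2 0.34 ± 0.06, adjusted p = 1.92e-04) was called in each fit that left out a library.

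The neighbourhood of Nr3c1 held no more called genes than the rest. Within 10 Mb of it 15 genes were higher and 11 lower of 156 tested, or 16.7%, against 18.8% of all tested genes. Within 2 Mb it was 1 higher and 5 lower of 50, or 12.0%.

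The genotypes were also compared within each of the other treatments, each with its own libraries of both genotypes. The mutant was higher at 1715 genes with dexamethasone (11.3%), 1918 with LPS (12.6%) and 2282 with both (15.0%), and lower at 2315 (15.2%), 1812 (11.9%) and 2550 (16.8%). Of the 1322 genes higher in vehicle, 826 were called higher with dexamethasone (62.5%, and 48.2% of the dexamethasone calls), 925 with LPS (70.0%, and 48.2%) and 752 with both (56.9%, and 33.0%). Of the 1539 lower in vehicle, 1024 were called lower with dexamethasone (66.5%, and 44.2% of those calls), 1155 with LPS (75.0%, and 63.7%) and 1020 with both (66.3%, and 40%). A total of 568 of the higher (43.0%) and 782 of the lower genes (50.8%) were called in the same direction in all of the 4 treatments. The opposite direction was called at 50 and 25 of the higher and lower genes with dexamethasone, 0 and 6 with LPS, and 76 and 92 with both. Libraries of the 4 treatments may share embryos or cultures, so this is not an independent repeat.

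Lgr5, Rgs5, Des and Prdm1 had the same direction in all treatments. The log2 differences with dexamethasone, LPS and both were 3.95, 4.505 and 3.59 for Lgr5, -2.77, -3.59 and -2.85 for Rgs5, and -2.32, -1.89 and -2.49 for Des. For Prdm1 they were 1.57, 3.30 and 1.45, against 3.43 in vehicle. Pdgfra had 1.70, 2.12 and 1.81, and Hoxa5 -1.001, -1.505 and -1.59. Of the macrophage markers Csf1r had 1.64, 1.15 and 1.06. Cxcl12 had -0.45, -1.24 and -0.87. Whether any of these differed between treatments was not tested.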

How the data were processed

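The deposited values are whole-number counts per gene that the authors made with STAR (versions 2.4.2 and 2.4.2a, mm10, per the submitters' processing notes), from TruSeq Stranded mRNA libraries made from 500 ng RNA per the labels' protocols. The reverse-strand column was used; 2.74% to 2.86% as many reads lay on the other strand. Summary rows for unmapped (3.37% to 5.16%), multimapping, unassigned and ambiguous reads were left out. Gene symbols and positions came from GENCODE vM21 (GRCm38), which held 15173 of the 15221 tested genes.

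All 24 libraries were fitted together with 1 coefficient per group in edgeR 4.0.16 (TMM, filterByExpr, robust quasi-likelihood test; R 4.3.3), with Benjamini-Hochberg adjustment over 15221 genes. The standard error is the absolute log2 difference divided by the square root of F. On simulated counts for this comparison (15099 genes), 48 of 67 genes changed 1.5-fold, 60 of 67 changed 2-fold and 66 of 66 changed 4-fold were recovered, with 9 false calls. The changed genes all had a wild-type mean above 1 CPM, and no simulated library stood apart as mutant replicate 1 did. Alternatives used DESeq2 1.42.0, other filters, offsets, strands and subsets of libraries.

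Named genes are Nr3c1 and the 4 markers, the 15 largest called differences per direction (mean of at least 1 CPM in the higher group, groups apart), up to 4 called members per list and direction, and defining markers of other cell types; further list members, Aldh1a2 and Ppbp were chosen after their values were seen. The comparison, its members and the 35 lists were chosen with earlier results of these data known. Some members of the lists are counted but not reported by name here.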

Additional observations from a re-analysis of the deposited data

Results flagged for a closer look

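A number of named genes were called between the genotypes in vehicle and differed between the genotypes in the opposite direction in another treatment. In each case all 3 mutant libraries lay on one side of all 3 wild-type libraries in vehicle and on the other side in that treatment. The difference between treatments itself was not tested. Values are log2 differences, mutant minus wild type.

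Genes higher in the mutant in vehicle and lower with dexamethasone included several that glucocorticoids induce. Tsc22d3 (vehicle 0.27) had -2.18 with dexamethasone and -1.86 with dexamethasone and LPS. Sgk1 (vehicle 0.25) had -1.21 and -1.01, Ppl (vehicle 2.21) -1.08 and -0.70, and Nfil3 (vehicle 0.23) -0.54 and -0.33. The growth factor Vegfd (vehicle 0.75) had -1.11 and -1.21, the actin regulator Lmod1 (vehicle 0.24) -0.59 and -0.83, the p53 target Sesn1 (vehicle 0.20) -0.53 and -0.92, and the clock gene Ciart (vehicle 0.39) -0.41 and -0.54. With dexamethasone and LPS together the mutant was also lower at Il31ra (-1.10, vehicle 3.27), Adamts20 (-0.56, vehicle 0.84), Osr1 (-0.54, vehicle 0.68), Ptx3 (-0.31, vehicle 1.11) and Lss (-0.27, vehicle 0.46).

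The following genes were lower in the mutant in vehicle and higher in another treatment. Ptgs2 (vehicle -0.76) had 0.37 with dexamethasone and 1.44 with dexamethasone and LPS. Lif (vehicle -0.57) had 0.17 with LPS and 1.86 with both, and Tnfaip3 (vehicle -0.88) 0.22 and 0.75. With both agents, the GTPases Irgm1 and Ifi47 had 2.02 and 2.52 (vehicle -1.27 and -0.64), B2m 0.36 (vehicle -0.29) and Plk2 0.30 (vehicle -0.48). The calls of Ifi47, Lmod1, Nfil3, Ciart and Sesn1 in vehicle were lost under at least 1 alternative.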

How the results depend on the processing

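The direction and the call of the 207 named genes were recomputed under 16 alternatives: in 3124 of 3297 cases both were kept, in 173 cases (37 genes) the call was lost with the same direction, and in 0 cases the direction reversed. Nearly all of the 207 were picked as called genes with large differences in these data, so most were bound to be kept. Among all 2861 calls, 76.2% were kept without mutant replicate 1. Aldh1a2, Ppbp and list members named only for their roles were outside the 207. The genes that lost a call were mostly low or slightly changed ones, such as Oas2, Oas3, Gli1, Scx, Syt1 and Dkk1. The count of called genes was 2861 in the reported fit and 2238 to 2601 when 1 vehicle library was left out (1037 to 1258 higher, 1184 to 1343 lower; at least 2-fold, 274 to 301 higher and 276 to 311 lower). It was 2800 with DESeq2's Wald test, 2856 with DESeq2 size factors, 2791 with unstranded counts, 2408 with no filter on low counts, 2896 with the 6 vehicle libraries alone and 4133 with GC and length offsets. Without the 5 libraries of the series that stood apart in depth or transcript length, mutant vehicle replicate 1 among them, 4620 genes were called, 2248 higher and 2372 lower; 2699 of the 2861 were among them, and the cause was not tested. In that fit the higher count was 11 for glucocorticoid-induced genes, 37 for matrix glycoproteins and proteoglycans, 16 for BMP and TGF-beta genes and 23 for cell cycle genes, and the lower count 6 for complement genes and 3 for liver markers.

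The labels number the replicates, but same-numbered libraries did not deviate together (correlations of deviations from the group mean -0.11, 0.11 and -0.13). With 3 libraries per group and mutant replicate 1 standing apart, these correlations cannot decide whether the numbers pair the samples. With the replicate number as a block, 2762 genes were called in the fit of 24 libraries (2726 shared with the reported fit), 3239 in that of 6, and 4085 with the block and GC and length offsets; the block changed no count of calls by more than 1.5 times. The limits are these: 3 libraries per group, mutant replicate 1 with 53108986 reads and another GC dependence, and the floor of 0.0565 to 0.149 CPM. Genes with a group near or below that floor, some of them called, rest on few reads. Of 67 genes simulated with a 1.5-fold change 48 were recovered, so differences smaller than this were often missed. The simulation changed only genes with a wild-type mean above 1 CPM, so it does not show how many low genes were missed.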

Other observations

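Called genes were spread over the chromosomes. On the autosomes the share ran from 15.6% of 703 tested genes on chromosome 17 to 22.7% of 587 on chromosome 15. It was 21.2% of 537 on the X chromosome, 28.6% (2 of 7) on the Y chromosome and 0 of 19 on the mitochondrial genome. Of the 5 tested sex-linked genes, 1 was called, Eif2s3y on the Y chromosome, at 45.2, 43.6 and 43.8 CPM in the wild type and 43.4, 33.7 and 36.9 CPM in the mutant (log2 difference -0.21 ± 0.07, adjusted p = 0.0431), and its call was lost under most alternatives.

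Melanocyte and red blood cell markers gave no calls: 2 and 1 genes of these lists passed the filter on low counts, and 0 of them passed the test.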
